A study of Homo sapiens with 4 samples.

Results

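The 10 genes described here, CDKN1A, MDM2, GADD45A, SESN1, ZMAT3, PHLDA3, TP53I3, RRM2B, XPC and FDXR, are targets of the transcription factor p53 that act mainly in growth arrest and DNA repair. They were chosen by name, with earlier results of these data known, and every array probe whose RefSeq accession belonged to them was included. This gave 16 probes for the 10 genes, out of 27210 probes for 18203 genes that could be named. The cells were Nalm-6, an established line from a human pre-B leukemia, and transcript levels were read on 1 array for each of 4 groups. WT cells were the unmodified line, Arp5 KO and Arp8 KO cells lacked a functional gene for actin-related protein 5 or 8, and Arp8 OE cells were labelled as overexpressing Arp8. The Arp5 KO line was made in Nalm-6 by gene targeting of both alleles, and the sources used here do not state whether each modified line was 1 clone or how the Arp8 OE cells were made. The authors report slightly slower growth for Arp5 KO cells, and from earlier work that conditional loss of Arp8 was lethal to cells. The part of growth or survival in the differences below was not tested. By the treatment protocol, heme was present at 20 uM for 12 hours in all groups, but the treatment tag of both knockouts reads no heme, as does the sample source of the Arp5 knockout, unlike that of the Arp8 knockout. The treatment of the knockout cells is therefore not settled by the labels, and groups were compared by genotype. If the tags are right, genotype and heme cannot be told apart in any comparison of a knockout with WT. No group had a replicate, so no difference was tested.

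In Arp8 KO cells, 10 of the 16 probes were over 2-fold higher than in WT, while 3.37% of all 24578 probes tested were. None of the 16 was past 2-fold lower, against 4.35% of all probes, and all 16 differences lay above 0. The median over all probes was 0.026, and their share above 0 is not given. The highest were PHLDA3 (6.69-fold), ZMAT3 (4.22-fold on its brighter probe), CDKN1A (3.86-fold on its brighter probe) and SESN1 (3.63-fold and 3.59-fold). In Arp5 KO cells none of the 16 probes was past 2-fold in either direction, and the same held for Arp8 OE. Over all probes tested, 1.69% were past 2-fold higher and 2.01% lower in Arp5 KO, and 2.96% and 2.15% in Arp8 OE. With only 16 probes, finding none is near these shares. GADD45A was nearly level over the 4 arrays, and TP53I3 was the only gene of the 10 whose highest array was Arp8 OE. RNA came from whole cultures, so fewer cells with a transcript and less of it per cell cannot be told apart.

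The tumor suppressor p53 is held low in unstressed cells by MDM2, a ubiquitin ligase that marks it for destruction, and it accumulates when DNA is damaged or nutrients and nucleotides run short. It then binds DNA as a tetramer and activates genes that stop the cell cycle, repair DNA, restrain growth signals or start apoptosis, and MDM2 is itself such a target, which closes a feedback loop. The actin-related proteins Arp5 and Arp8 belong to INO80, a chromatin remodeler that spends ATP to move nucleosomes and takes part in transcription, replication and repair. In precursor B cells, breaks made on purpose during antibody gene rearrangement are among the signals that reach p53.

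Levels of the targeted genes served as a check on the labels. The Arp5 gene, ACTR5, stood 19.3-fold below WT on the Arp5 KO array. Both probes of the Arp8 gene, ACTR8, were somewhat lower in Arp8 KO, with log2 differences from WT of -0.53 and -0.68, and were at 0.02 and -0.01 in Arp8 OE. Where these probes lie relative to the disrupted part of the gene is not known here, so they check the Arp8 KO label only in part. On these 2 probes the array labelled Arp8 OE showed no raised ACTR8. Whether they would read an introduced Arp8 sequence is not known here, so the name is used only as a label. HMOX1, the heme-inducible heme oxygenase gene, was lower than in WT on all 3 other arrays, with log2 differences of -2.98 (Arp5 KO), -2.91 (Arp8 KO) and -2.05 (Arp8 OE). For the knockouts, genotype and a possible lack of heme cannot be told apart in these HMOX1 values. All 11 B-precursor markers examined, CD79A and PAX5 among them, were well above background on every array, and their summed signal was 218.1 to 277.7 times the 75th percentile. The sums were 0.040 to 0.048 for 3 T cell markers, 0.121 to 0.166 for 3 myeloid and 0.950 to 1.22 for 3 epithelial markers. Among the T cell, myeloid and epithelial markers, CD14, KRT8 and KRT18 were well above background on all 4 arrays, LYZ and CD3E in Arp8 KO alone, and CD3D, CD3G, MPO and EPCAM on none. In Arp8 KO the B-precursor sum was the lowest of the 4, the myeloid sum the highest and the epithelial sum, carried by KRT8 and KRT18, the highest by a narrow margin. The part of these values in the differences below was not tested.

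A level is given as log2 of the processed signal over the 75th percentile of its array, so that 0 stands for that percentile and a step of 1 for 2-fold. Levels are compared between arrays for the same probe only. All 16 probes were well above background on all 4 arrays, and none of their spots was saturated, so none of the values is a bound. Probes printed 10 times on each array gave the technical error. The SD of a log2 difference between 2 arrays was derived from the spread of spots within an array, as for unpaired single spots. It came to 0.0745 for bright probes (mean level above 0), 0.107 for middle ones (between -3 and 0) and 0.230 for dim ones (below -3). Arrays closer than 2 of these SDs, which is 0.149, 0.213 or 0.460, are described as not ordered. These SDs describe the spots of 1 array and carry no information on the spread between cultures. They were not measured on differences at the same position, which spread less on the CDKN1A probe printed 10 times, with SDs of 0.021 to 0.035. For probes averaged over several spots the limits are therefore wide.

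**Figure D1:**
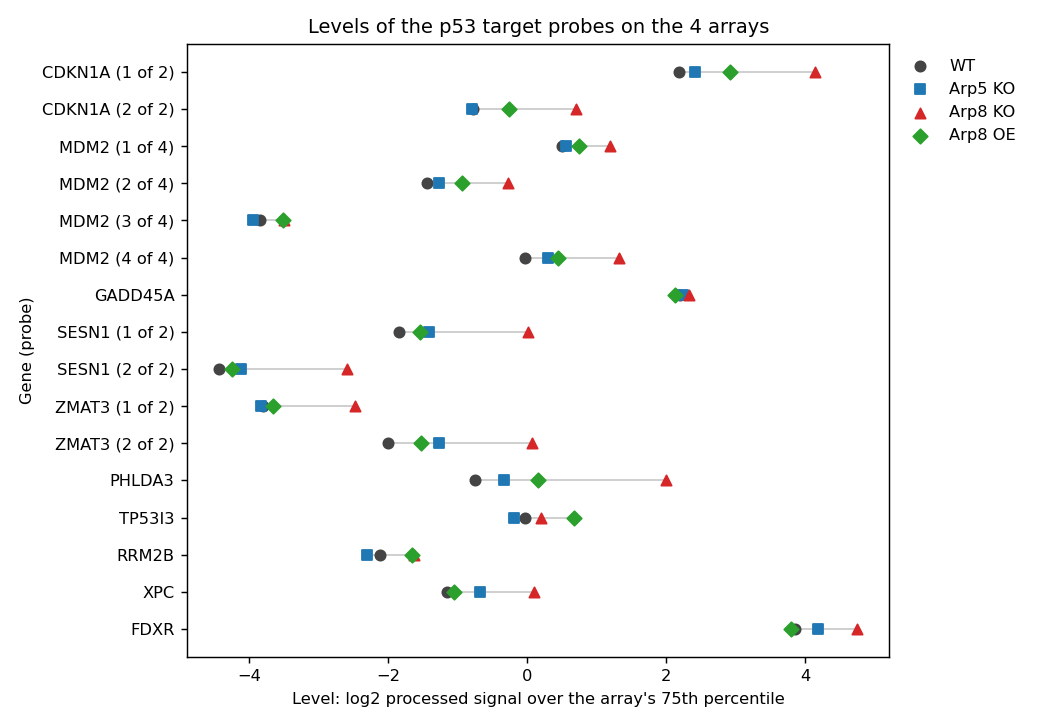
Level of each of the 16 probes (rows) on the 4 arrays, as log2 processed signal over the 75th percentile of the array; each symbol is 1 array, grey bars join the lowest and the highest, and levels should be compared along a row only. Arp8 KO is the rightmost symbol for 15 of the 16 probes, and TP53I3 is the exception.

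Arp8 KO was the highest of the 4 arrays for 15 of the 16 probes, and for 12 of them by more than the technical limit. Over all probes well above background on the 4 arrays, 34.0% had their highest level in Arp8 KO. WT was the lowest array for 9 of the 16 probes, Arp5 KO for 5 and Arp8 OE for 2. Shares over all probes are not given for the lowest array, nor for Arp8 KO highest by more than the technical limit. Those counts therefore have no background to be read against. Below Arp8 KO the order of the other groups differed from gene to gene, and it often lay within the technical limit, as described for each gene.

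Sequences upstream of the start sites were read because probes of several of these genes were high on the same array. RefSeq windows of GRCh38.p14, reaching from 250 bases before to 50 bases after a start, were found for 7 of the 10 genes, as 14 windows. GADD45A, PHLDA3 and RRM2B were not among them. The p53 consensus decamer (purines, C, a pair of A or T, G, pyrimidines), which reads the same on both strands, was found in 2 of the 14 windows, and in 6.63% of the 35116 windows in the table. A pair of decamers at most 13 bases apart was found in none of the 14 windows and in 0.0285% of all windows. The 250 bases before the start are shown for both windows with a decamer, and for CDKN1A, the best known of the targets, whose window holds none. Bases in capitals mark the decamer. The windows lie at chr6:109008989-109009238 (minus strand) for the third SESN1 start, at chr17:74872995-74873244 (minus strand) for the first FDXR start, and at chr6:36678464-36678713 (plus strand) for CDKN1A.
SESN1: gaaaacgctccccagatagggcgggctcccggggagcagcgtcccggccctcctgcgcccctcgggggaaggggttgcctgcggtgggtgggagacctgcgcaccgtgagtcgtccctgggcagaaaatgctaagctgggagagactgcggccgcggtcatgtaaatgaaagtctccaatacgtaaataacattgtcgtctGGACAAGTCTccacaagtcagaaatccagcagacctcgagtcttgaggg
FDXR: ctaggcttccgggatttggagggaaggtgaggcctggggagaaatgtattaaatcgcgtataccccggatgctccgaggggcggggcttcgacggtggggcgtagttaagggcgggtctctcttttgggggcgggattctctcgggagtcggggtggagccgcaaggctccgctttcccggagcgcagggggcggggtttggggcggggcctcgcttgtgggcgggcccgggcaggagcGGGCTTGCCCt
CDKN1A: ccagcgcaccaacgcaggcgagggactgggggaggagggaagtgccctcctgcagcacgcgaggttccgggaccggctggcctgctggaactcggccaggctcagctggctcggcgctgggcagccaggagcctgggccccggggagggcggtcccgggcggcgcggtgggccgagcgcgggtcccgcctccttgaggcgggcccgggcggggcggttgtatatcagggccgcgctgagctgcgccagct
The SESN1 decamer begins 49 bases before the start and the FDXR decamer 11 bases before it. A match is a description of these letters only, and genes with and without one were high in Arp8 KO, as the values show. The absence of a match says nothing of sites outside the window, nor of sites inside it that depart from the consensus by a base or more.

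CDKN1A encodes p21, the inhibitor of cyclin-dependent kinases through which p53 holds cells before replication. Its brighter probe (A_23_P59210), printed at 10 positions, had a level of 2.19 ± 0.05 (SD, n = 10 spots) in WT, 2.41 ± 0.06 in Arp5 KO, 2.92 ± 0.04 in Arp8 OE and 4.14 ± 0.05 in Arp8 KO. The spots of the 4 arrays did not overlap: the highest WT spot was at 2.25 and the lowest Arp5 KO spot at 2.27, and the lowest Arp8 KO spot, at 4.01, lay above every spot of the other arrays. In Arp8 KO the difference from WT was 1.95 ± 0.02 (SD, n = 10 spots), in Arp8 OE 0.73 ± 0.03 and in Arp5 KO 0.22 ± 0.03. Only 1 of the 10 spots lay beside a spot that was bright on Arp8 KO alone, and the other 9 gave the same difference of 1.95. The second probe (A_24_P89457) had 1 spot, with levels of -0.78 in WT, -0.79 in Arp5 KO, -0.26 in Arp8 OE and 0.71 in Arp8 KO. Here Arp5 KO and WT were not ordered, and Arp8 KO was 2.80-fold above WT. On both probes Arp8 OE lay between WT and Arp8 KO.

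**Figure D2:**
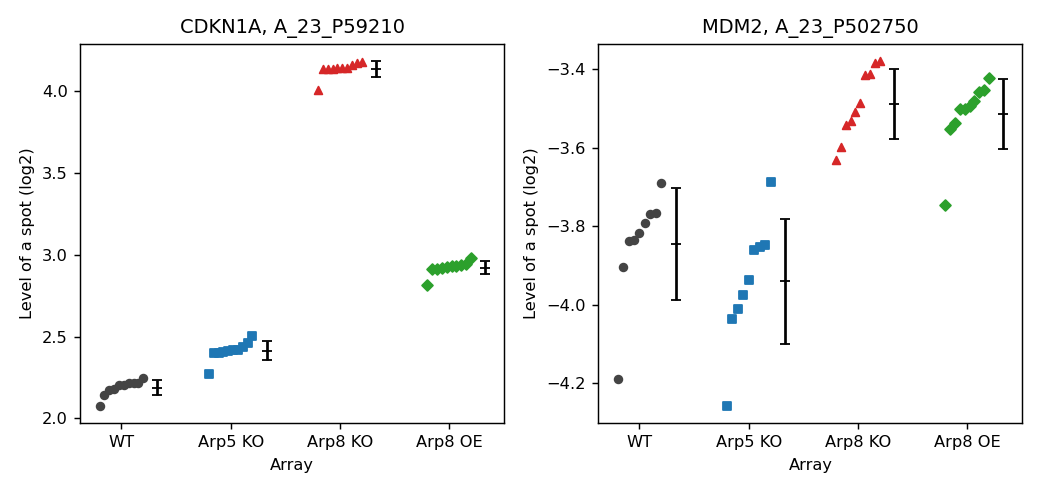
Level of every usable spot of the 2 probes printed at 10 positions on the 4 arrays, in log2, sorted by level from left to right within an array, with the mean and SD over spots beside them in black; the vertical scales of the panels differ. The CDKN1A spots form separate bands in the order WT, Arp5 KO, Arp8 OE, Arp8 KO, whereas for the dim MDM2 probe the spots of WT and Arp5 KO overlap, as do those of Arp8 KO and Arp8 OE.

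MDM2 was covered by 4 probes, and they did not give the same size of difference. The brightest in WT (A_23_P139895) had levels of 0.50 in WT, 0.55 in Arp5 KO, 0.75 in Arp8 OE and 1.19 in Arp8 KO. Probe A_24_P925664 had levels of -0.03, 0.30, 0.45 and 1.33 in the same order, and probe A_23_P309545 levels of -1.43, -1.26, -0.93 and -0.28. On each of these 3 probes Arp8 KO stood highest and Arp8 OE next, and the differences of Arp8 KO from WT were 0.69, 1.36 and 1.16. The remaining probe (A_23_P502750), printed at 10 positions, was dim, at -3.84 ± 0.14 (SD, n = 9 spots) in WT, -3.94 ± 0.16 (n = 9) in Arp5 KO, -3.51 ± 0.09 (n = 10) in Arp8 OE and -3.49 ± 0.09 (n = 10) in Arp8 KO. Its largest span, 0.45 between Arp5 KO and Arp8 KO, was within the technical limit of dim probes. That limit is set for single spots, however, and this probe averages several. Taken position by position, Arp8 KO minus Arp5 KO was 0.46 ± 0.15 (SD, n = 9 spots), from 0.20 to 0.71. No Arp8 KO spot was as low as the highest spot of WT or Arp5 KO. Of the 4 MDM2 probes, 2 were thus past 2-fold in Arp8 KO.

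PHLDA3 encodes a small protein that competes with the kinase AKT for membrane lipids and thereby restrains growth and survival signals. Its probe had levels of -0.74 in WT, -0.33 in Arp5 KO, 0.16 in Arp8 OE and 2.0 in Arp8 KO. All neighbours in this order differed by more than the technical limit, and Arp8 KO was 6.69-fold above WT, 5.02-fold above Arp5 KO and 3.57-fold above Arp8 OE. Among all probes tested in Arp8 KO against WT it ranked 37th from the top. Its spot lay beside 1 spot that was bright on Arp5 KO alone.

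SESN1 encodes sestrin 1, which inhibits the growth kinase complex mTORC1 and takes part in the defence against peroxides. Its brighter probe (A_23_P93562) had levels of -1.85 in WT, -1.42 in Arp5 KO, -1.54 in Arp8 OE and 0.01 in Arp8 KO. Its dimmer probe (A_24_P346339) had levels of -4.43, -4.11, -4.24 and -2.58 in the same order. Both placed Arp8 KO far above the other arrays, with differences from WT of 1.86 and 1.84, from Arp8 OE of 1.55 and 1.66 and from Arp5 KO of 1.43 and 1.53. Arp5 KO and Arp8 OE were not ordered on either probe.

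ZMAT3 encodes an RNA-binding zinc finger protein with a role in p53-dependent growth control. Its brighter probe (A_24_P639629) had levels of -2.00 in WT, -1.27 in Arp5 KO, -1.52 in Arp8 OE and 0.08 in Arp8 KO. Its dimmer probe (A_23_P113283) had levels of -3.80, -3.83, -3.65 and -2.47 in the same order. The probes shared the high level in Arp8 KO, with differences from WT of 2.08 and 1.33, but not the one in Arp5 KO, where the brighter probe was at 0.73 and the dimmer at -0.03 from WT. The brighter ZMAT3 probe gave the largest Arp5 KO difference of the 16 probes, at 1.66-fold.

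XPC and RRM2B serve repair: XPC recognises distorted DNA for nucleotide excision repair, and RRM2B is the p53-inducible small subunit of ribonucleotide reductase, which supplies deoxynucleotides. XPC had levels of -1.15 in WT, -0.67 in Arp5 KO, -1.06 in Arp8 OE and 0.09 in Arp8 KO. WT and Arp8 OE were not ordered, and XPC was higher in Arp5 KO by 0.48 and in Arp8 KO by 1.25. RRM2B had levels of -2.11, -2.31, -1.65 and -1.62 in the same order. It differed from WT by less than 2-fold on every array, by -0.19 (Arp5 KO), 0.46 (Arp8 OE) and 0.50 (Arp8 KO), and neither Arp8 KO and Arp8 OE nor Arp5 KO and WT were ordered. The RRM2B spot lay beside 1 spot that was bright on Arp8 KO alone. GADD45A, whose product binds PCNA and p21 and acts in arrest and repair, had levels of 2.20 in WT, 2.25 in Arp5 KO, 2.13 in Arp8 OE and 2.33 in Arp8 KO, in which no neighbours were ordered, although the ends, Arp8 OE and Arp8 KO, were 0.20 apart.

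FDXR and TP53I3 encode oxidoreductases. FDXR, mitochondrial ferredoxin reductase, feeds electrons to steroid and iron-sulfur cluster synthesis, and TP53I3 is a quinone oxidoreductase. FDXR had levels of 3.86 in WT, 4.19 in Arp5 KO, 3.79 in Arp8 OE and 4.75 in Arp8 KO, so that Arp8 KO was 1.85-fold above WT and 1.94-fold above Arp8 OE, both short of 2-fold. Arp8 OE and WT were not ordered. TP53I3 had levels of -0.03, -0.19, 0.68 and 0.20 in the same order of arrays. It was highest in Arp8 OE, 1.63-fold above WT, and Arp8 KO lay 1.39-fold below that array.

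**Figure D3:**
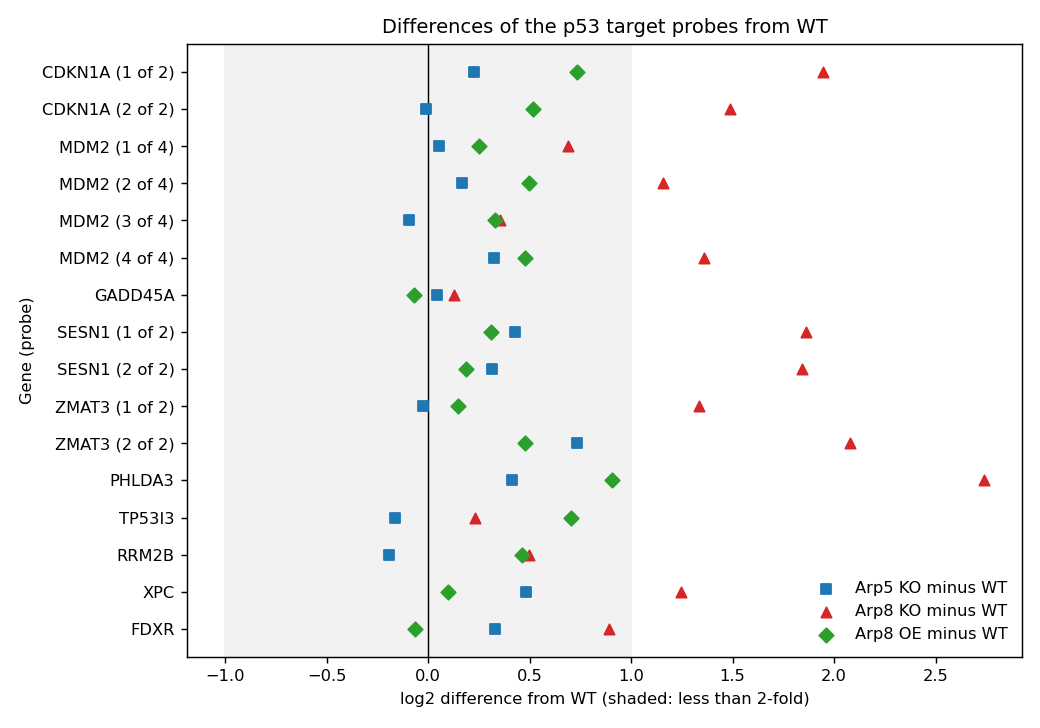
Log2 difference from WT of each of the 16 probes on the 3 other arrays, with the zone of less than 2-fold shaded; the 3 differences of a row share the same WT array. Arp8 KO leaves the shaded zone for 10 probes, and no symbol of Arp5 KO or Arp8 OE does.

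Next, the 16 probes were summarised beside all probes tested, for each pair of arrays. In Arp8 KO against WT their median difference was 1.29, from 0.13 to 2.74, and the median over all 24578 probes was 0.026. Of the 16 probes, 2 were past 4-fold, where 0.5% of all probes were. Counted by gene, with the probes of a gene averaged, 5 of 10 were past 2-fold: PHLDA3 (2.74), SESN1 (1.85), CDKN1A (1.72), ZMAT3 (1.70) and XPC (1.25). FDXR and MDM2 followed, both at 0.89, and RRM2B (0.50), TP53I3 (0.23) and GADD45A (0.13) came last. The share of all genes past 2-fold by this count is not given here.

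In Arp5 KO against WT, 0 of the 16 probes were past 2-fold higher and 0 lower, and 1.69% and 2.01% of the 24285 probes tested were. Finding none among 16 probes is near these shares. The median was 0.20, against 0.0042 over all probes, and the values ran from -0.19 (RRM2B) to 0.73 (ZMAT3). The difference was above 0 for 11 probes and below 0 for 5, and 8 of the 16 lay within the technical limit of their brightness class. Shares over all probes are not given for these counts, which therefore have no background to be read against. Beside ZMAT3, the higher ones were XPC (0.48), SESN1 (0.43 and 0.31), PHLDA3 (0.41), FDXR (0.33) and 1 MDM2 probe (0.33). The Arp5 KO median depended on the reference: against Arp8 OE in place of WT it was -0.19.

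In Arp8 OE against WT, 0 of the 16 probes were past 2-fold higher or lower, where 2.96% of the 24177 probes were past 2-fold higher and 2.15% lower. Finding none among 16 probes is near these shares too. The median was 0.40, against 0.0002 over all probes, with 14 probes above 0 and 2 below. The share of all probes above 0 is not given here. PHLDA3 (0.91), CDKN1A (0.73 and 0.52) and TP53I3 (0.70) were the highest, and GADD45A and FDXR, at -0.07 each, were the only ones below 0. For the 10 probes past 2-fold in Arp8 KO, the Arp8 OE difference was 7.7% (XPC) to 43.0% (MDM2) of the Arp8 KO difference on the log2 scale. These probes were chosen by a large Arp8 KO difference, which by itself keeps this share low. On the remaining probes, Arp8 OE and Arp8 KO were at 0.70 and 0.23 (TP53I3), 0.46 and 0.50 (RRM2B) and 0.33 and 0.36 (dim MDM2 probe). They were at 0.25 and 0.69 on the brightest MDM2 probe, -0.07 and 0.13 for GADD45A and -0.07 and 0.89 for FDXR. The Arp8 OE and Arp8 KO differences share the WT array, so part of any likeness comes from that array alone.

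Arp8 KO was then compared with the arrays other than WT. These comparisons do not depend on the WT array, but they share the Arp8 KO array with the one against WT. Against Arp8 OE, 7 of the 16 probes were past 2-fold higher, where 1.64% of the 24204 probes were, and none was past 2-fold lower, where 3.78% were. These were PHLDA3 (1.83), both SESN1 probes (1.66 and 1.55), both ZMAT3 probes (1.60 and 1.18), the brighter CDKN1A probe (1.21) and XPC (1.15). The median was 0.96, and TP53I3 (-0.47) was the only probe below 0. Against Arp5 KO, 8 of the 16 were past 2-fold higher, where 2.53% of the 24440 probes were. None was past 2-fold lower, where 3.18% were, and the median was 1.01. These were PHLDA3 (2.33), CDKN1A (1.72 and 1.49), SESN1 (1.53 and 1.43), ZMAT3 (1.36 and 1.34) and 1 MDM2 probe (1.03). PHLDA3, SESN1, ZMAT3 and the brighter CDKN1A probe were thus past 2-fold in Arp8 KO against each of the 3 other arrays. For the dimmer SESN1 and ZMAT3 probes this call was lost with normexp background correction, where they were at 0.83 each against WT, at 0.81 and 0.73 against Arp8 OE and at 0.69 and 0.75 against Arp5 KO. The comparisons with the 3 other arrays rest on the same Arp8 KO array, so they are not independent of each other.

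**Figure D4:**
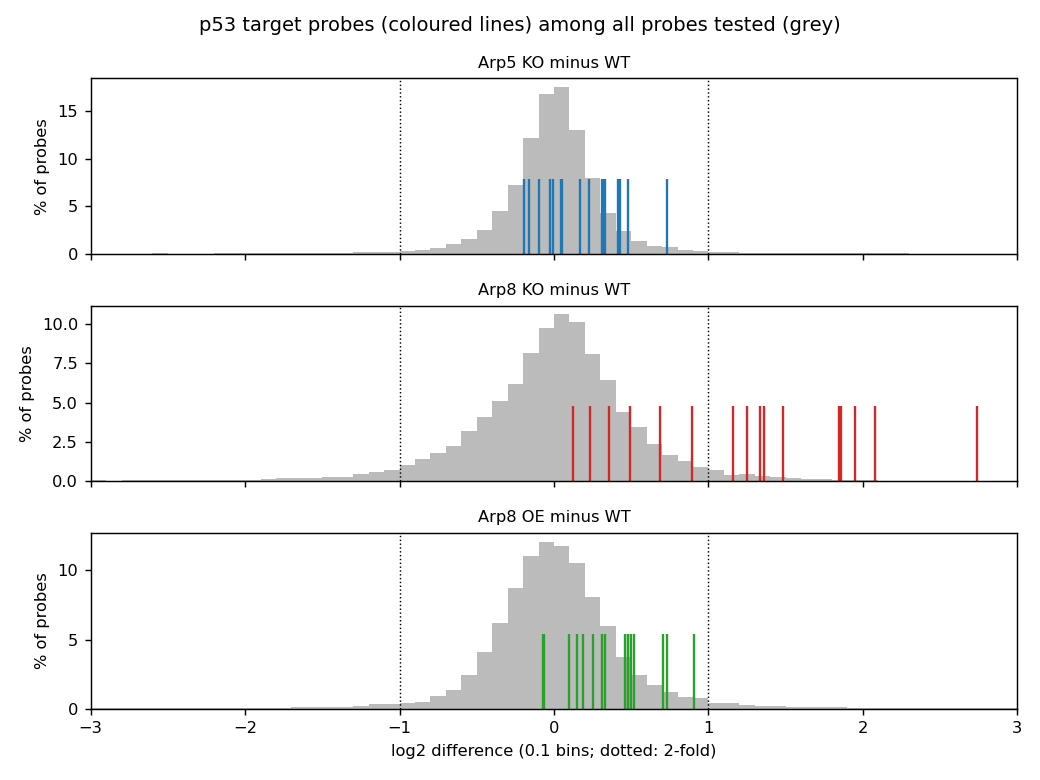
Distribution of the log2 difference from WT over all probes tested (grey bars, percent of probes per bin of 0.1), with the 16 probes of the p53 targets as coloured lines of arbitrary height; dotted lines mark 2-fold. The axis is limited to the range from -3 to 3; in Arp8 KO 10 lines lie beyond the upper dotted line, and in Arp5 KO and Arp8 OE none does.

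Further p53 targets were examined as a list of 27 genes, chosen with earlier results of these data known. PLK2 and SFN failed the background criterion on all 4 arrays, and each comparison with WT tested 37 probes of 24 genes. In Arp8 KO, 14 of the 37 were past 2-fold higher and none lower, with a median of 0.68, where 3.37% and 4.35% of all probes were past 2-fold higher and lower. In Arp5 KO 1 was past 2-fold higher, a SPATA18 probe with a bound of 1.32 that was well above background in Arp5 KO only, and none was lower, with a median of 0.16. This count is near the shares over all probes, 1.69% and 2.01%. In Arp8 OE 3 were higher, of BBC3, CCNG2 (1.11) and TNFRSF10B, and 1 was lower, of BAX (-1.08), and the median was 0.14, beside 2.96% and 2.15% of all probes. The other, brighter BAX probes were at -0.42 and 0.04, and the other CCNG2 probes at 0.62 and 0.55. The leading genes in Arp8 KO were BBC3, the proapoptotic gene PUMA (2.64 and 2.30 on 2 probes, 0.16 on the third), TNFRSF10B, a death receptor (1.60 and 1.17), TP53INP1, a stress protein of the p53 pathway (1.53), PLK3, a polo-like kinase (1.28), RPS27L, a ribosomal protein-like gene (1.24), and TIGAR, which lowers glycolytic flux (1.17 on its dim probe and 0.42 on the bright one). The third BBC3 probe was the brightest, at a level of 7.36 in WT, where the probes at 2.64 and 2.30 had levels of 1.06 and -2.66. The BBC3 probe at 2.30 lay beside a spot bright on Arp8 KO alone, and the RPS27L probe beside a spot bright on Arp5 KO alone. Not all targets were higher in Arp8 KO: the difference was above 0 for 29 of the 37 probes, a count without its share over all probes. Below 0 were PMAIP1 (-0.76) and the probes of POLK (-0.76 and -0.02) and CCNG2 (-0.37, -0.30 and -0.27). The BAX probes were at 0.34, -0.18 and -0.33 in Arp8 KO. The Arp8 OE differences of BBC3 and TNFRSF10B were 1.17 and 1.02 on their highest probes.

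**Figure D5:**
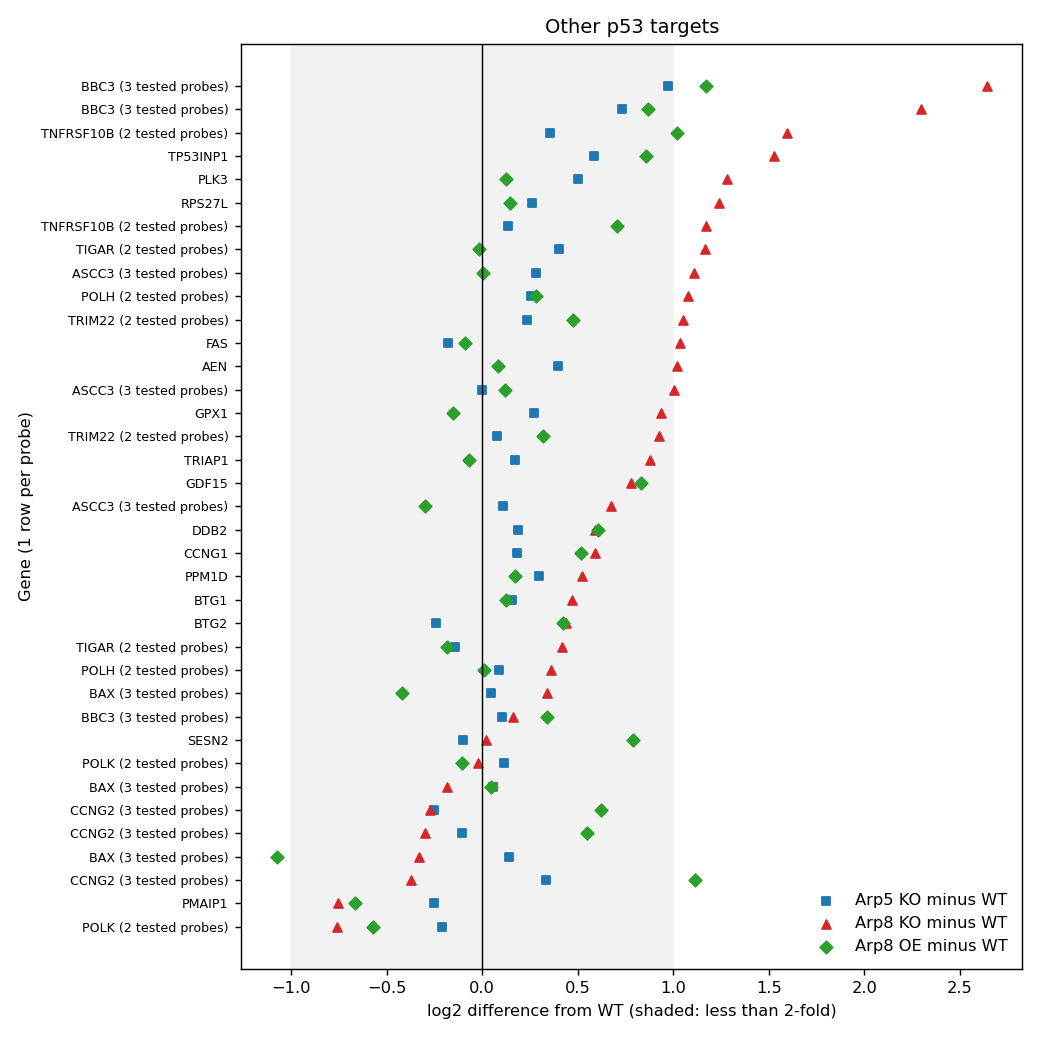
Log2 difference from WT on the 3 other arrays for the 37 probes of further p53 targets tested in Arp8 KO against WT, 1 row per probe, ordered by the Arp8 KO difference; the zone of less than 2-fold is shaded. Symbols of Arp8 KO leave the zone on the upper side for 14 probes, led by BBC3, and none leaves it on the lower side; the values of GDF15 are bounds.

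Among the regulators of p53, 22 probes for 14 genes were tested. Past 2-fold higher in Arp8 KO was 1 of them, a share near the 3.37% of all probes, a probe of the deubiquitinase gene USP7 (1.06), whose other, brighter probe was at -0.16 and which lay beside a spot bright on Arp8 KO alone. The list median was 0.0046 in Arp8 KO, 0.0086 in Arp5 KO and 0.048 in Arp8 OE. The kinases and cyclins that p21 inhibits, with PCNA, RB1 and E2F1, gave no measured difference or bound past 2-fold on any of the 3 arrays against WT, with medians of -0.0040 in Arp8 KO over 17 probes, 0.055 in Arp5 KO over 16 and -0.17 in Arp8 OE over 15. Over all probes, 3.37% (Arp8 KO), 1.69% (Arp5 KO) and 2.96% (Arp8 OE) were past 2-fold higher, and 4.35%, 2.01% and 2.15% lower. With so few probes in the list, finding none past 2-fold is near these shares. For the cyclin gene CCND2, which was not well above background in WT, the differences were lower bounds that leave a difference over 2-fold possible, of 0.24 in Arp5 KO on 1 probe and of 0.19 and 0.905 in Arp8 KO on 2 probes. CCND1 failed the background criterion on all 4 arrays.

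Family relatives of the 10 genes were examined with 22 probes. In Arp8 KO none was past 2-fold higher and 1 was lower, near the 3.37% and 4.35% of all probes. The lower one was GADD45G (-1.52), which was at -1.49 in the Arp5 knockout and at -0.81 in Arp8 OE. The median was -0.21 in Arp8 KO. In Arp5 KO, 2 of the 22 probes were past 2-fold higher and 1, of GADD45G, lower, where 1.69% and 2.01% of all probes were. The 2 higher ones were both of PHLDA1 (1.19 and 1.09). The remaining PHLDA1 probes were at 0.80 each, and these 4 lay between -0.20 and 0.74 in Arp8 KO. In Arp8 OE the p21 relative CDKN1C was the only one past 2-fold, at 1.47, where 2.96% of all probes were past 2-fold higher and 2.15% lower.

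Finally, the genes with the pattern nearest to CDKN1A were sought among 10640 genes all of whose tested probes were well above background on the 4 arrays, by the Euclidean distance over the 3 log2 differences from WT. For CDKN1A, averaged over its probes, these were 0.11 (Arp5 KO), 0.62 (Arp8 OE) and 1.72 (Arp8 KO). The nearest were ATP4B (distance 0.25), CALML6 (0.28), DENND2D (0.33), MYL5 (0.37) and TRAF3IP2-AS1 (0.40), each with 1 probe. TRAF3IP2-AS1 is an antisense transcript, and its probe was assigned by accession alone. Of the other 9 genes, ZMAT3 came 6th and SESN1 15th, XPC 104th and MDM2 134th, and GADD45A, at place 4070, was the farthest. With 3 differences that share the WT array, such a likeness describes the arrays and has no error attached.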

How the data were processed

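Total RNA of Nalm-6 cells was converted to Cy3 cRNA and measured on 4 Agilent arrays of 1 colour. The deposited scanner files hold the intensity of each spot on a linear scale, made by the authors, who per the file headers used Agilent's Feature Extraction software, version 10.10.1.1. Background had been subtracted and spatial trends removed on each array, with no scaling from array to array. The spot flags are other values deposited in these files. The authors' series matrix holds the same intensity times 1 factor per array (1.99 to 2.29) and served as an alternative.

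For each array, the processed signal was divided by its 75th percentile over non-control spots and the log2 taken (735.1 for WT, 739.6 for Arp5 KO, 647.4 for Arp8 OE, 655.7 for Arp8 KO). Spots flagged as outliers (69 to 76 per array) were left out, and spots of a probe were averaged. A probe counted as well above background if at least 50% of its spots were, which held for 55.8% to 57.4% of 41000 probes, and a pair of arrays was compared for a probe if either met this. A dim value was raised to the lowest level well above background on its array and its difference called a bound. Gene names came from the accession through RefSeq of GRCh38.p14; the arrays' own design names hg19. A spot was bright on 1 array alone if over 2-fold above the 3 others, and spots within 20 pixels were neighbours. Promoter windows were RefSeq sequences.

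With 1 array per group no test was made; the number of arrays limits the precision. The named genes were the 10 targets, the targeted genes and HMOX1, up to 6 genes per list past 2-fold in a knockout and well above background on both arrays, BBC3, and the 5 genes nearest to CDKN1A. SPATA18, GDF15, PLK2, SFN, CCND1, CCND2, CCNG2, BAX, POLK, PMAIP1 and CDKN1C were named after their values were seen, as exceptions. A few further values that the rule would give are not reported here. Members and lists were chosen with earlier results of these data known. Steps were tested on simulated data. Python 3.11.15, pandas 2.3.3, R 4.3.3 and limma 3.58.1 were used. The alternatives tried were cyclic loess, quantile normalization, scaling to the median, normexp with an offset of 50 followed by quantile normalization (run on the median spot signal and median background, so that the input signal changed too), the series matrix, other filters, gene means, a 4-fold threshold, Arp8 OE as the reference, and leaving out probes beside bright spots.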

Additional observations from a re-analysis of the deposited data

How the results depend on the processing

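No paired analysis was possible because each group had 1 array. Cyclic loess, quantile normalization, scaling to the median, the series matrix, both filters and leaving out the 2 probes beside bright spots (PHLDA3 and RRM2B) changed no count of probes past 2-fold by over 1.5 times and moved no median beyond the technical SD. With normexp, which also took median spot signals as its input, the median was 0.90 in Arp8 KO and 0.31 in Arp8 OE against WT, 0.77 in Arp8 KO against Arp8 OE and 0.72 against Arp5 KO; the counts past 2-fold higher became 7, 4 and 5 in Arp8 KO against WT, Arp8 OE and Arp5 KO. The probes that left 2-fold against WT were the dimmer SESN1 (0.83) and ZMAT3 (0.83) probes and 1 MDM2 probe (0.92). Those lost against Arp8 OE were the same SESN1 and ZMAT3 probes and XPC (0.97), and against Arp5 KO the same SESN1 and ZMAT3 probes and another MDM2 probe (0.90). By gene means, 5 of 10 genes were past 2-fold in Arp8 KO against WT (median 1.07) and 4 against Arp5 KO (median 0.77), where fewer units are counted. At 4-fold the counts were 2 against WT, where 0.5% of all probes were past 4-fold higher, 0 against Arp8 OE and 1 against Arp5 KO. Shares over all probes or genes are not given for the normexp and gene counts, nor at 4-fold against Arp8 OE and Arp5 KO. With Arp8 OE as the reference the median was 0.96 for Arp8 KO and turned negative, at -0.19, for Arp5 KO. The cause of these shifts was not tested. Of 207 recomputed values of the 25 differences past 2-fold, 195 stayed past 2-fold in the same direction, and no single difference past 2-fold changed sign. Low signal limits the dim probes of MDM2, SESN1 and ZMAT3 most.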
